A study of Homo sapiens with 4 samples.

Results

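The genes that make, oxidise and recycle polyamines were examined in the H3K27ac ChIP-seq of the neuroblastoma line SK-N-BE(2)C. H3K27ac is acetylation of lysine 27 of histone H3, a mark found at active promoters and enhancers. The 9 genes are *ODC1*, *AMD1*, *SRM*, *SMOX*, *PAOX*, *OAZ1*, *OAZ2*, *AZIN1* and *MTAP*, of 20033 protein-coding genes in GENCODE release 44. They were chosen by name for their role, and their peaks are those that overlap the gene or the 10 kb before and after it. These windows, 519.57 kb in all, held 32 of the 63699 peaks of the control list and 33 of the 50119 peaks of the list from *SNHG1*-depletion cells.

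Polyamines (putrescine, spermidine and spermine) are small positively charged molecules that bind nucleic acids and are needed for growth. ODC1 makes putrescine from ornithine, AMD1 supplies the aminopropyl donor, and SRM and SMS add that group to give spermidine and spermine. SMOX and PAOX oxidise polyamines back, the antizymes OAZ1 and OAZ2 send ODC1 to the proteasome, AZIN1 binds the antizymes in place of ODC1, and MTAP recycles the methylthioadenosine that synthesis leaves behind. *ODC1* is a known target of MYC proteins, which bind the E-box CACGTG, and the SK-N-BE(2)C line carries an amplified *MYCN*.

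The study compared wildtype cells given a non-targeting control gRNA (sgCtrl) with cells given gRNAs against *SNHG1*, a long noncoding RNA gene (sgSNHG1, labelled *SNHG1* knockout, although its methods describe depletion rather than complete loss). Cells of both groups carried Cas9 and a surrogate reporter, were selected with puromycin and were expanded from sorted single cells, so that a clone and its genotype cannot be told apart. Each group has 2 samples, but the authors combined them before calling peaks, and the 2 lists hold no value per sample. There is therefore no replicate check of any difference, no test was possible, and every comparison is a description of these 2 lists.

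Each peak is given by its fold enrichment (the summit of the pooled library over the local background that the peak caller estimated) and by its percentile of fold enrichment within its own list. The number of fragments over the summit was recovered from the fold enrichment and the p-value. The lowest background, the floor that the peak caller takes from the whole genome, was 4.89 fragments in sgCtrl and 4.66 in sgSNHG1, and ratios of fragments are given after division by it. At this floor the smallest peak held 19 fragments in sgCtrl and 18 in sgSNHG1. Intervals are 95% and cover counting error only, and duplicate reads were kept, so fragments need not be separate molecules. As a check of the cell type, all 9 adrenergic genes examined (*HAND2*, *ISL1*, *GATA3*, *TBX2*, *MYCN*, *DBH*, *TH*, *CHGA* and *CHGB*) had a peak in their window in both lists, with 62 and 53 peaks. Of 8 genes of other cell types, 5 (*PTPRC*, *CD3E*, *PECAM1*, *EPCAM* and *INS*) also had a peak in their window in both lists, with 15 and 11 peaks, and *ALB*, *KRT5* and *MYH7* had none. *INS* gave 7 of the 15 and 2 of the 11, but its window overlaps that of *TH*, and both have the same highest peak in sgCtrl. Only *EPCAM* of these 8 had a peak within 1 kb of its own start. All 9 adrenergic genes had one there in sgSNHG1, and all but *DBH* in sgCtrl. Of 20033 coding genes, 15058 had a window peak in both lists, so a window peak says little about the cell type.

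Reference sequence is shown for 3 of the start sites that the results turn on, read 5′ to 3′ along the gene from hg38, with each CACGTG in capitals. The stretch of *ODC1* (chr2:10447996-10448120, minus strand) opens intron 1 of the canonical transcript and lies under the highest H3K27ac peak of the 9 genes. The stretches of *SRM* (chr1:11060021-11060268, minus strand) and *MTAP* (chr9:21802386-21802635, plus strand) lie directly upstream of the gene, and their extent was taken from the RefSeq promoter table (GRCh38.p14).
ODC1 intron 1: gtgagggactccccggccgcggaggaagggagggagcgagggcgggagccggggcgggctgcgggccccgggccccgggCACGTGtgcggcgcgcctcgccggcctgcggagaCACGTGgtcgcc
SRM upstream: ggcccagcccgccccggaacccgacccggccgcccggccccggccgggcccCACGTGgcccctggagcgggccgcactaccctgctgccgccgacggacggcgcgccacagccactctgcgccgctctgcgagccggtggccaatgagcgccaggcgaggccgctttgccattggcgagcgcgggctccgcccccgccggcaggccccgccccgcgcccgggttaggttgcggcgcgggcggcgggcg
MTAP upstream: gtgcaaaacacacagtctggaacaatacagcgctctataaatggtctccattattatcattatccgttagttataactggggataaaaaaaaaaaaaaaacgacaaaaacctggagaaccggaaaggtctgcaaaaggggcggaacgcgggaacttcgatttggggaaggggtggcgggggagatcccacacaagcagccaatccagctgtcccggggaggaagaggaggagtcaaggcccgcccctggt

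The motif CACGTG is its own reverse complement, so both strands are read at once. In the 1001 bases centred on the canonical start, it occurred 3 times at *ODC1*, 2 times at *SRM* and once at *AZIN1*, and not at the other 6 genes. In the RefSeq table, 6 of the 9 genes had 9 promoters of 300 bases, and 2 of these promoters (1 of *ODC1* and that of *SRM*) held it, against 7.26% of all 35116 promoters. Of all 20033 coding genes, 18.3% held it in a window of that length and 2.94% held it 2 or more times. All 3 matches of *ODC1* lay under a peak in both lists, as did the match of *AZIN1*. Of the 2 matches of *SRM*, the one 454 bp inside the gene lay under the start-site peak in both lists, and the upstream one printed above lay outside it. Of the start-site peaks of the 9 genes, 5 of 12 in sgCtrl and 4 of 13 in sgSNHG1 contained the motif, from 3 genes in each list. The shares were 11.5% and 11.6% of all start-site peaks. Those of the 9 genes had a median length of 655.5 and 439 bp, against 526 and 546 bp. GC content of these windows ranged from 55.8% at *AMD1* to 78.8% at *PAOX*, with 60.4% at *MTAP*, against a median of 61.3% over all coding genes.

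The first question was whether the 9 genes carried the mark at their start sites in each group. A start-site peak lies within 1 kb of a start of one of the gene's coding transcripts. In sgCtrl, 8 of the 9 genes had one, all but *MTAP*, against 65.1% of all coding genes. In sgSNHG1, 8 of 9 had one, all but *PAOX*, against 64.2%. These counts rested on the limits: with starts taken within 3 kb, 9 genes had one in sgSNHG1 and 8 in sgCtrl. With peaks of a −log10 p of 10 or more only, 8 had one in sgSNHG1 and 7 in sgCtrl. The start sites of *ODC1*, *AMD1*, *SRM*, *SMOX*, *OAZ1*, *OAZ2* and *AZIN1* were thus marked in both lists.

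**Figure D1:**
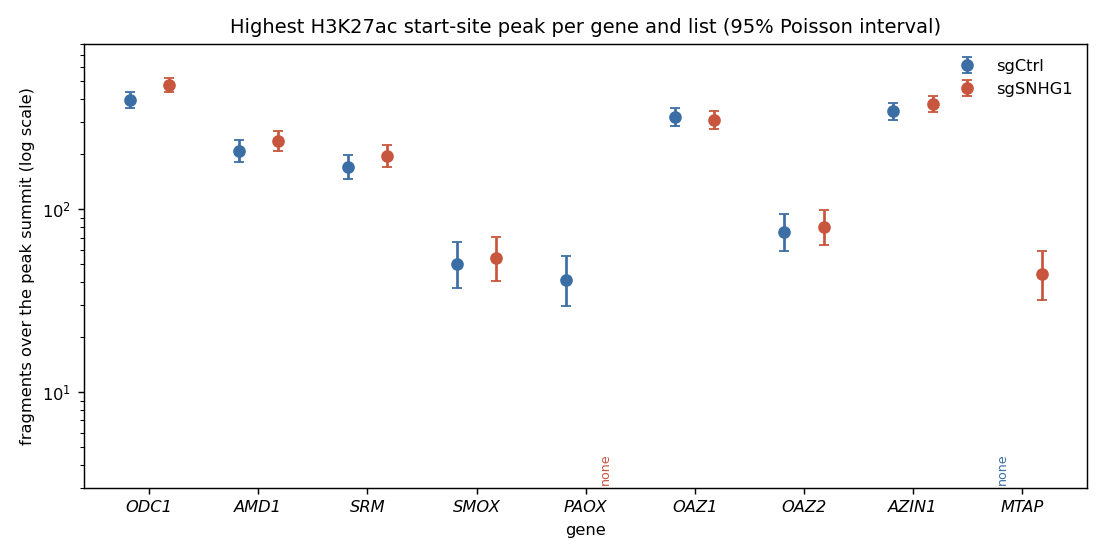
Fragments over the summit of the highest start-site peak (log scale) for each gene, in sgCtrl (blue) and sgSNHG1 (red), with 95% Poisson intervals for counting error only. *ODC1* was highest in both lists (394 and 478 fragments), *PAOX* had no such peak within 1 kb in sgSNHG1 and *MTAP* none in sgCtrl.

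Of the synthesis genes, *ODC1*, the rate-limiting decarboxylase, had the highest start-site peak of the 9 genes in both lists. Its peak ran over chr2:10447639-10448433 in sgCtrl and chr2:10447600-10448454 in sgSNHG1, with the summit in intron 1. Fold enrichment was 12.6 in sgCtrl and 14.3 in sgSNHG1 (percentiles 98.1 and 98.7), from 394 and 478 fragments. The fragments over the floor were 1.27 times as many in sgSNHG1 (interval 1.11 to 1.46). Among the 9 genes this was the only start-site peak whose interval left out equality. Its log2 ratio of 0.35 lay within the quartiles over coding genes with a start-site peak in both lists (−0.11 and 0.38, median 0.15). An interval wholly above equality was found for 20.1% of sgCtrl peaks near any coding start that an sgSNHG1 peak overlapped. A second peak, upstream of the start and within the divergent noncoding gene *ODC1-DT*, had a fold enrichment of 4.53 and 4.98 (151 and 176 fragments).

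The peaks of the *ODC1* window away from the start had lower values in sgSNHG1. The one downstream of the gene's 3′ end and nearest to *HPCAL1* held 119 fragments in sgCtrl, where 2 peaks of 63 and 64 fragments stood in sgSNHG1, a ratio of 0.565 (interval 0.410 to 0.772) for the higher. The next, also downstream, held 97 and 60 fragments (ratio 0.650, interval 0.463 to 0.906). The peak upstream of the gene held 85 and 62 (ratio 0.766, interval 0.543 to 1.08), and 1 further downstream peak of fold enrichment 2.09 was in the sgCtrl list alone. *ODC1* thus had more fragments at its start and fewer at its distal peaks, and the bases covered in its window were 4403 in sgCtrl and 3265 in sgSNHG1. The lower distal values are not particular to *ODC1*. Over all coding windows, 76.7% of overlapped sgCtrl peaks away from every coding start held fewer fragments over the floor in sgSNHG1. Within 1 Mb of *ODC1*, outside its window, the median log2 ratio of overlapped peaks was −0.27.

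*AMD1*, the S-adenosylmethionine decarboxylase, had 1 peak over its start, chr6:110875009-110876192 in sgCtrl, with nearly the same ends in sgSNHG1. Its fold enrichment was 10.6 and 10.7 (208 and 236 fragments, ratio 1.19, interval 0.985 to 1.44), which is no difference beyond counting error. A weak peak just upstream (fold enrichment 2.92, 63 fragments) was in the sgSNHG1 list alone.

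*SRM*, the spermidine synthase, had its start-site peak at chr1:11058740-11059982 in sgCtrl and chr1:11058740-11060002 in sgSNHG1. Its fold enrichment was 5.75 and 7.51 (percentiles 81.8 and 88.5), a ratio of 1.31, the largest when each of the 7 genes with such a peak in both lists is taken at its highest start-site peak. The fragments, 171 and 196, differed less (ratio 1.20, interval 0.976 to 1.49), and the local background below them was 28.9 fragments in sgCtrl and 25.2 in sgSNHG1. Fold enrichment divides by that background, so the 2 measures need not move alike.

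The rest of the *SRM* window had fewer and shorter peaks in sgSNHG1. A peak over the 3′ UTR of *SRM*, within 1 kb of the start of a short transcript (fold enrichment 2.52, 76 fragments), was in the sgCtrl list alone. The 2 peaks in the neighbouring gene *MASP2* held 64 and 66 fragments in sgCtrl and 37 and 37 in sgSNHG1, with ratios of 0.607 (interval 0.394 to 0.924) and 0.589 (interval 0.383 to 0.894). The bases covered in the window were 3702 in sgCtrl and 1840 in sgSNHG1.

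Of the oxidases, *SMOX*, which oxidises spermine, had a start-site fold enrichment of 5.67 and 5.84 (50 and 54 fragments, ratio 1.13, interval 0.758 to 1.70). At an internal start of *SMOX* the values were 3.09 and 4.37 (37 and 50 fragments, ratio 1.42, interval 0.910 to 2.23), but these peaks overlapped by their ends only, with summits at bases 4171974 and 4172372. The peaks in an intron and in a coding exon of *SMOX* held 48 and 46, and 29 and 28 fragments. None of these pairs differed beyond counting error, and 1 upstream peak (fold enrichment 3.59) was in the sgSNHG1 list alone.

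*PAOX*, the peroxisomal acetylpolyamine oxidase, had a weak start-site peak at chr10:133379422-133380025 in sgCtrl alone (fold enrichment 2.94, percentile 25.5, 41 fragments, interval 29.4 to 55.6). A readthrough coding gene that runs into *MTG1* starts beside it. Upstream of the start, beyond 1 kb, each list had a weak peak, and these did not overlap. Fold enrichment was 2.65 in sgCtrl (43 fragments) and 2.70 in sgSNHG1 (39 fragments), so the absence in sgSNHG1 rests on the 1 kb limit. Among coding genes, 4.57% had a start-site peak in sgCtrl alone, with a median fold enrichment of 3.83, and 79.6% of those were at or above the value of *PAOX*. The higher peaks of its window belong to the starts of neighbours. That at *MTG1* had a fold enrichment of 6.94 and 7.00 (141 and 144 fragments) and that at *ECHS1* one of 3.99 and 5.50 (78 and 97 fragments, ratio 1.31, interval 0.960 to 1.78). The percentile given below for *PAOX* is that of the *MTG1* peak, not of the start of *PAOX*.

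Of the genes that control ODC1, *OAZ1* had a broad start-site peak, chr19:2269642-2271486 in sgCtrl. Its fold enrichment was 6.41 and 6.48, from 319 and 306 fragments, a ratio of 1.01 (interval 0.859 to 1.18). A readthrough coding gene starts at the same place, and the 5′ end of the coding gene *JSRP1*, on the minus strand, lies under the same peak. A downstream peak over *PEAK3* held 174 and 107 fragments (fold enrichment 4.23 and 3.07, ratio 0.646, interval 0.503 to 0.827), and an intronic peak of fold enrichment 2.09 was in the sgSNHG1 list alone. The start of *OAZ1* thus had near-equal values while the *PEAK3* peak of its window had a lower one.

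*OAZ2* had a narrower start-site peak, chr15:64702709-64703176 in sgCtrl, with a fold enrichment of 5.85 and 6.16 (75 and 80 fragments, ratio 1.12, interval 0.807 to 1.56). Its other peaks were in 1 list each. Those of sgCtrl lay in its introns (fold enrichment 3.34 and 2.87), and those of sgSNHG1 over the 3′ UTR of *ZNF609* (3.41) and just upstream of the start (2.72).

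*AZIN1*, whose start lies close to that of an unnamed coding gene, had a fold enrichment of 10.8 in both lists at its start (342 and 376 fragments, ratio 1.15, interval 0.995 to 1.34). Its second start-site peak, upstream, had 5.10 and 5.24 (162 and 183 fragments, ratio 1.19, interval 0.955 to 1.48). An intronic peak held 45 and 53 fragments (ratio 1.24, interval 0.816 to 1.88). Of its remaining peaks, 2 were in the sgCtrl list alone and 1 in the sgSNHG1 list alone.

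*MTAP*, the salvage phosphorylase, was the gene whose highest peak differed most. In sgCtrl its only peak lay in an intron, at chr9:21824646-21824854, with a fold enrichment of 4.58 from 26 fragments (percentile 68.6), and no sgSNHG1 peak overlapped it. In sgSNHG1 its only peak lay at the start, at chr9:21802705-21802948, with a fold enrichment of 7.95 (percentile 89.8) and a −log10 p of 28.0. That peak held 44 fragments (interval 32.0 to 59.1) over a background at the floor, and the sgCtrl list holds no peak there. Of all coding genes, 3.67% had a start-site peak in sgSNHG1 alone. The median fold enrichment of those 735 genes was 4.16, and 17 of them (2.31%) were at or above *MTAP*, itself counted. By fragments the peak ranked lower, at percentile 40.2 of the sgSNHG1 list. Among all coding genes with a start-site peak in sgSNHG1, *MTAP* stood at percentile 61.3 by fold enrichment and 20.1 by fragments.

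The surroundings of *MTAP* differed between the lists as well. Within 5 Mb on either side, outside its own window, there were 55 peaks in sgCtrl and 23 in sgSNHG1, a ratio of 0.418, and over the 20 sgCtrl peaks that were overlapped there, the median log2 ratio of fragments over the floor was −0.71. Around the other 8 genes the ratios of peak numbers ran from 0.680 to 0.959 and the medians from −0.31 to 0.0096. Within 1 Mb of *MTAP* the 1 peak found in both lists, at the start of *KLHL9*, held 70 and 57 fragments, and a peak near the start of *CDKN2A* held 25 fragments in sgCtrl and 23 in sgSNHG1 at places that do not overlap. The median fold enrichment of the peaks in these 5 Mb was 5.43 over the 55 of sgCtrl and 5.83 over the 23 of sgSNHG1. These medians cover different sets of peaks, so they do not compare the height of the same peaks. The start-site peak of *MTAP* was thus found in the list with fewer neighbouring peaks, and by the median these held fewer fragments where they overlapped. A noncoding readthrough gene shares its start, and their signals cannot be told apart.

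**Figure D2:**
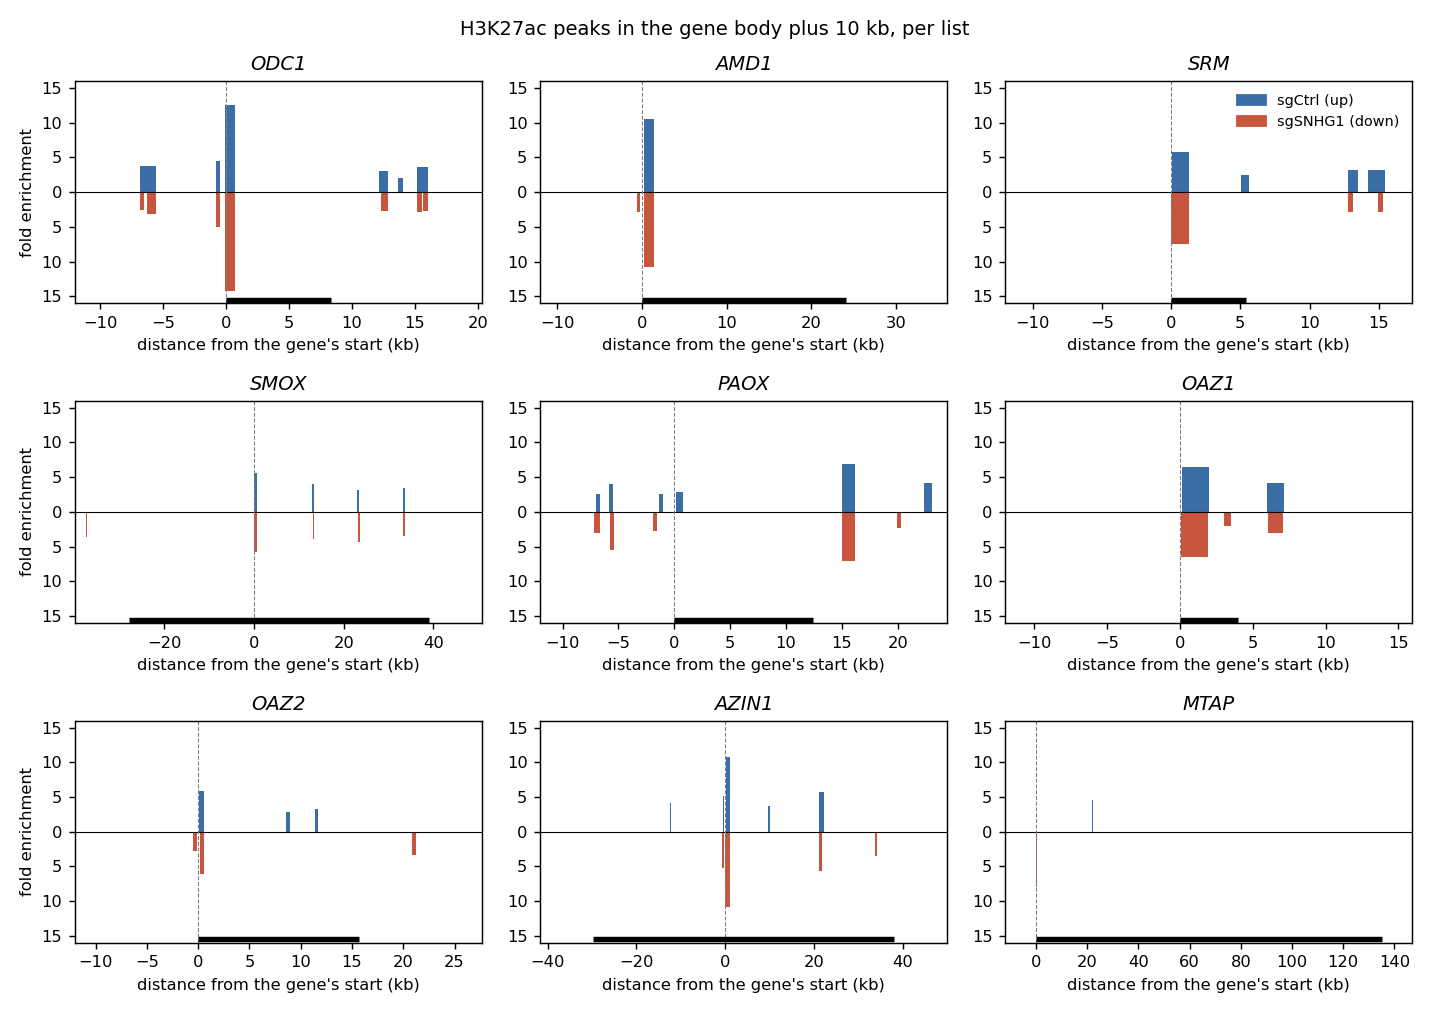
H3K27ac peaks in the window of each gene, by distance of the peak from the canonical start (kb, positive into the gene) and fold enrichment, with sgCtrl drawn upward (blue), sgSNHG1 downward (red) and the gene body as a black bar. Peaks at the starts of *ODC1*, *AMD1* and *AZIN1* exceeded 10 in both lists, and *MTAP* had 1 peak in each list at different places.

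The second question was whether the group as a whole differed. The percentile of the highest window peak was 0.61 points higher in sgSNHG1 for *ODC1*, 6.67 for *SRM* and 21.2 for *MTAP*, and lower for the other 6 genes by at most 1.83 points (*PAOX*). The median change of the 9 genes was −0.77 points, against −0.68 over the 15058 coding genes with a peak in both lists. For the 9 genes it turned to 2.04 by covered bases, a different measure, and to 2.05 once the lists were equal in length. No median over all coding genes was taken under these alternatives, so they have no background beside them. Only *MTAP* moved by 10 points or more. Over all genes, 8.63% moved that far upward and 12.7% downward, so 1 gene of 9 is near the background. Where the percentile was taken of the bases covered in the window, *MTAP* moved by 2.04 points only, *AMD1* and *SMOX* stood higher by 15.8 and 13.9, and *SRM* lower by 19.8.

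**Figure D3:**
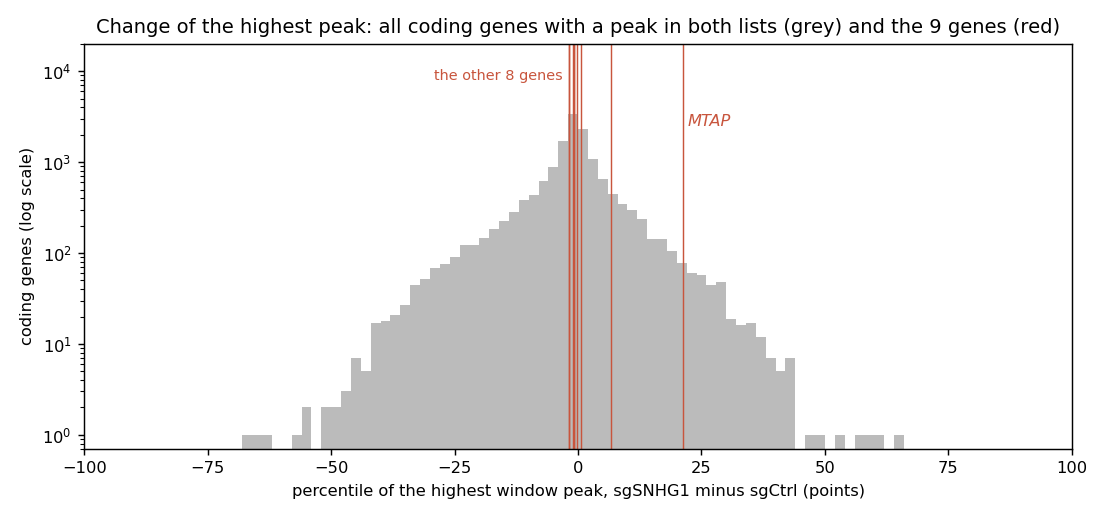
Change in percentile of the highest window peak (sgSNHG1 minus sgCtrl, in points) for the coding genes with a peak in both lists (grey, number of genes on a log scale) and for the 9 genes (red lines). *MTAP* stands at 21.2 points and *SRM* at 6.67, and the other 7 lie between −1.83 and 0.61.

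At the start site, the fold enrichment of all 7 genes with a peak in both lists was slightly higher in sgSNHG1. The log2 ratios ran from 0.0020 (*AZIN1*) to 0.38 (*SRM*), with a median of 0.045, against 0.048 over 12117 coding genes (quartiles −0.10 and 0.21). None reached 1.5 times in either direction, which 2.57% of coding genes did upward and 0.949% downward. The direction shared by the 7 genes was that of the median gene.

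Peaks at a start and peaks elsewhere in the windows were then set apart. Of the 32 sgCtrl peaks of the windows, 22 were overlapped by at least 1 bp by an sgSNHG1 peak (68.8%, exact interval 50.0 to 83.9), against 63.1% over the windows of all coding genes. In the other direction, 24 of 33 were overlapped (72.7%, interval 54.5 to 86.7), against 80.7%. The number of window peaks had a ratio of 1.03 (sgSNHG1 over sgCtrl), against 0.792 over all coding windows, but this rested on the window size. With the gene body alone the ratio of the 9 genes was 0.789, and with 50 kb on either side it was 0.787. With lists of equal size it was 1.43. The ratio over all coding genes was taken for the 10 kb windows of the full lists only, so these alternatives have no background beside them. The covered bases, 21070 in sgCtrl and 18462 in sgSNHG1, had a ratio of 0.876 against 0.800, with a mean fold enrichment per peak of 4.72 and 4.81 and a median of 4.02 and 3.54.

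Of the 22 overlapped peaks, all 10 at a start of 1 of the 9 genes held more fragments over the floor in sgSNHG1, with a median log2 ratio of 0.25. Before division by the floor, 9 of these 10 held more, and *OAZ1* held fewer. Of the 12 elsewhere, 6 held more and 6 fewer over the floor, with a median of −0.19. Before the division, 3 held more, 1 the same and 8 fewer, and in fold enrichment 3 were higher, all in the *PAOX* window, and 9 lower. An interval wholly below 0 was found for 5 of the 12, namely 2 at *ODC1*, 2 at *SRM* and 1 at *OAZ1*. The same contrast was present over all coding windows. Of 14541 overlapped sgCtrl peaks near any coding start 61.9% held more in sgSNHG1 (median 0.12), and of 16801 others 76.7% held fewer (median −0.26). By the same division, 13 of 14 peaks of the 9 genes near any coding start held more (median 0.23) and 5 of the other 8 held fewer (median −0.50). In fold enrichment 13 of the 14 were higher and all 8 of the others lower, against 57.4% and 61.0% over all coding windows. The median log2 ratios of fold enrichment were smaller, 0.060 for the 14 and −0.13 for the 8, against 0.044 and −0.066 over all coding windows. Near a coding start, the interval lay wholly above 0 for 1 of the 14 peaks and wholly below for 1, against 20.1% and 8.61% of all such peaks. Away from every start it lay above for 0 of the 8 and below for 4, against 2.58% and 22.0%. The 10 start-site pairs come from 7 genes and share their libraries, so they are not independent.

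**Figure D4:**
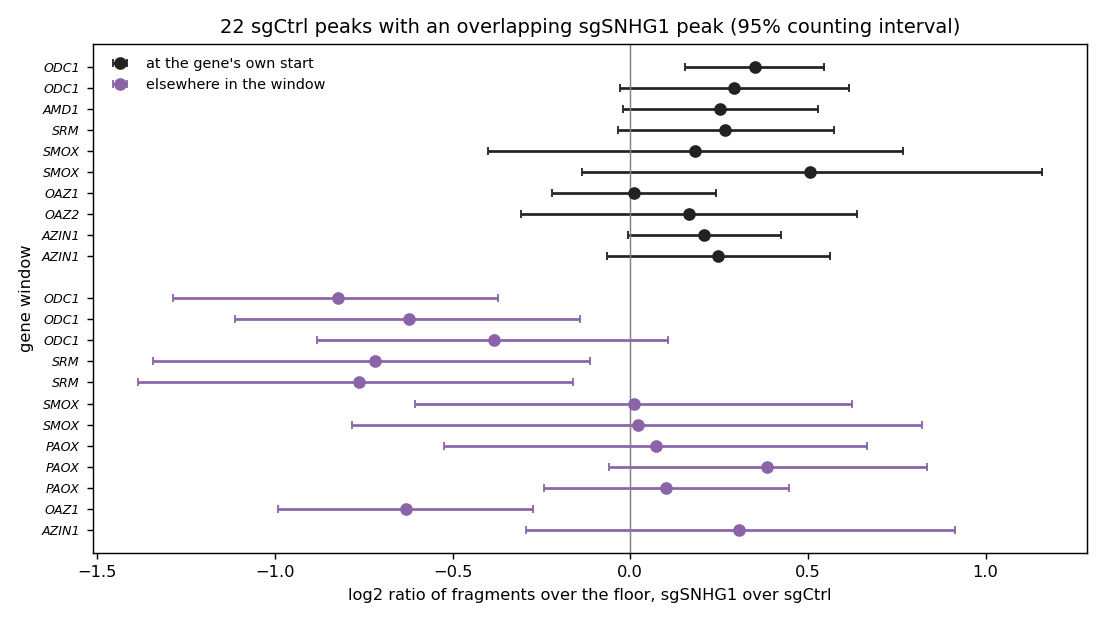
Log2 ratio (sgSNHG1 over sgCtrl) of fragments over the floor for the 22 sgCtrl peaks with an overlapping sgSNHG1 peak, with 95% counting intervals, for peaks at the gene's own start (black) and elsewhere in its window (purple). The 10 start-site points lie above 0, between 0.011 and 0.51, and the others between −0.82 and 0.39.

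The peaks without an overlap were of low to middling height apart from those of *MTAP*. Of 10 such peaks in sgCtrl, the fold enrichment ran from 2.09 to 4.19 when *MTAP* is left out, and of 9 in sgSNHG1 from 2.09 to 3.59. The highest of these, in the sgCtrl list, lay in *MTG1* in the *PAOX* window (4.19, percentile 60.5) and upstream of *AZIN1* (4.13, percentile 59.3).

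The other genes of the pathway were described as a list of 25 (synthesis, catabolism, the methionine cycle, salvage, hypusine formation and transport). In both lists 22 had a window peak, all 22 with one at their start, and *SAT1*, *SAT2* and *ARG1* had none in the lists used here. Of all 20033 coding genes, 15058 had a window peak in both lists and 12117 a start-site peak in both. *SMS*, the spermine synthase, had a start-site fold enrichment of 10.1 and 11.3 (100 and 110 fragments). The highest peak was 10 points or more higher for 1 gene, the amino acid transporter subunit *SLC3A2* (percentiles 61.0 and 84.0). This gene lies beside *SNHG1*, the locus that the gRNAs targeted, and whether editing there bears on its peak was not tested. The highest peak was 10 points or more lower for 2, the agmatinase *AGMAT* (83.8 and 72.2) and the lysosomal polyamine exporter *ATP13A2* (73.3 and 62.0). Over all coding genes with a peak in both lists, 8.63% moved that far upward and 12.7% downward, so neither count is above the background. The median change was −1.10 points, against −0.68 over all coding genes. At the start site the fold enrichment was at least 1.5 times higher for 2 of the 22 genes, against 2.57% of coding genes. These were *SLC3A2* (4.22 and 6.44, 85 and 134 fragments) and the vesicular polyamine transporter *SLC18B1* (4.07 and 6.25, 23 and 63 fragments). The 23 fragments of *SLC18B1* in sgCtrl were close to the 19 of the smallest peak. The fold enrichment was at least 1.5 times lower for 0 genes, against 0.949% of coding genes. Its median log2 ratio at the start was −0.014, against 0.048 over all coding genes.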

How the data were processed

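H3K27ac ChIP-seq of 2 sgCtrl and 2 sgSNHG1 samples was used, grouped by their labels. The authors trimmed reads with cutadapt, aligned them to GRCh38 with BWA, pooled the reads of the 2 samples per group and ran MACS2 in paired-end mode at a p-value of 1e-06, keeping duplicates. Versions and an input library are not given in the sources used here. The deposited lists give per peak a fold enrichment (a ratio to local background), the −log10 of the p-value and q-value as the authors' peak caller gave them, an integer score and a summit offset. The deposited score and q-value were not used.

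Fragments over each summit were recovered by assuming a MACS2 pseudocount of 1 and a Poisson p-value. Whole numbers within 0.001 came out for 99.93% of sgCtrl and 99.95% of sgSNHG1 peaks. The depth per sample is unknown, and the pooled depth sets the floor described in the text. Intervals are Poisson, exact binomial (Clopper-Pearson) or, for a ratio, exact conditional on the sum. Of several overlapping peaks, the one with most fragments was paired.

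Genes, starts and introns came from GENCODE release 44, and no peak lay beyond a reference sequence end. All coding genes served as background. A call was a change of 10 percentile points or of 1.5 times in fold enrichment. The members and lists were chosen with earlier results of these data known. All 9 genes were named by rule. Of the pathway list the text names *SMS*, *SAT1* and those past a call, and *SAT2*, *ARG1* and *SLC18B1* were named after their values were seen. The planned limma test needed values per replicate and was not run. The comparison of paired peaks was added after seeing the data.

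Computations used scipy 1.17.1, numpy 2.4.6, bedtools 2.31.1, pandas 2.3.3 and samtools 1.23.1 under Python 3.11.15, and figures matplotlib 3.10.9. The recovery was tested on simulated data (100% of 5000 peaks).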

Additional observations from a re-analysis of the deposited data

How the results depend on the processing

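The alternatives were lists of equal size, peaks with a −log10 p of 10 or more only, the gene body alone or plus 50 kb, merging within 1 kb, other overlaps (50% of both peaks, or within 1 kb), start sites within 3 kb, and percentiles of other measures. Of 151 alternative values, 145 planned and 6 chosen after seeing the data, 142 stayed within the limits used (10 points, 1.5 times or the interval) and 9 moved. No value that was past a call as reported changed sign, but values short of a call did. That of *SRM*, short of a call as reported, passed it in opposite directions under different alternatives. The number of the 9 genes whose highest peak moved by 10 points or more was 1 as reported, 2 with lists of equal size (*MTAP* and *SRM*) and 3 with percentiles of covered bases (*AMD1*, *SRM* and *SMOX*). The change of *MTAP* was 48.4 points by −log10 p, 32.7 by fragments and 2.04 by covered bases. That of *SRM*, 6.67 as reported, turned to −1.26 with 50 kb and to −19.8 by covered bases, and was 11.6 with lists of equal size. The median change of the 9 genes, −0.77 points as reported, turned to 2.05 with lists of equal size, 0.12 by fragments and 2.04 by covered bases. The ratio of peak numbers, 1.03 as reported, was 1.43 with lists of equal size, 0.789 with the gene body alone and 0.787 with 50 kb, and that of covered bases from 0.791 to 1.02. The median log2 ratio of fragments stayed at 0.25 at the genes' own starts and ran from −0.50 to −0.19 elsewhere, and that of fold enrichment was 0.060 and −0.084.

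No paired analysis was possible because the authors combined both samples of a group and the lists hold no value per replicate, and leaving out a replicate needs the same values. The lists hold nothing below the peak caller's threshold.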
